A study of Rattus norvegicus with 6 samples.

Results

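Islet and beta-cell transcription factors were followed in rat islet cells after transfection with a gapmeR against ci-Ins2, a circular RNA formed by intron 2 of the insulin gene Ins2. The set was a list of 29 genes fixed by name, which holds DNA-binding factors of islet endocrine cells and some of their cofactors. Of these 29, 27 were found by gene name in the abundance table, and 23 were measured at a level that allowed a test, of 13927 genes tested among 28656 gene names. Mlxipl and Insm1 were not found by gene name, so their levels in the rat cells were not analysed. Bach2, Tcf7l2, Pax4 and Foxa1 were too low to test. The series compares 2 groups of 3 libraries. Pancreatic islets of male Wistar rats, 12 weeks old, were dissociated into single cells and transfected with a control gapmeR or with the ci-Ins2 gapmeR, and RNA was taken 48 h later. Neither group was sorted, so each library holds the beta cells together with the other cells of the islet, and each of the 3 animals gave 1 library of each group. A gapmeR is an antisense oligonucleotide with locked nucleic acids at its ends, which directs RNase H to the RNA that it pairs with.

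Islet transcription factors act in a network. Pancreatic progenitors and endocrine precursors pass through a series of these factors, and mature beta cells keep a subset of them on, which bind the insulin promoter, hold the genes of glucose sensing and secretion active and keep the programmes of alpha and delta cells silent. Several of the human genes are known from monogenic diabetes, among them PDX1, NEUROD1, HNF4A, RFX6 and GLIS3.

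The oligonucleotides and their site are shown because the comparison rests on them. Capitals mark the 6 bases that pair with the first bases of rat Ins2 intron 2, and the other 10 bases of the ci-Ins2 gapmeR pair with what precedes that start in the circle.
control gapmeR: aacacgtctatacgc
ci-Ins2 gapmeR: GCTTACagacacatag
RNA site paired by the ci-Ins2 gapmeR: ctatgtgtctGTAAGC
start of rat Ins2 intron 2: GTAAGCtctgctcctgaattctatcccaag
The circle itself has no value in these libraries, which were made from polyadenylated RNA. The linear Ins2 mRNA was at 78403 ± 536 (SD, n = 3) in control libraries and at 75456 ± 1032 in ci-Ins2 libraries (adjusted p = 0.788).

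All values are relative abundances per transcript length, the deposited numbers divided by 10, so that they sum to the same total in every library, and were then scaled between libraries by factors of 0.961 to 1.03. Their depth is unknown. Levels of different genes can be set side by side on this scale. The number of transcripts above 0 ran from 26127 to 26730 over the 6 libraries. The defining beta-cell markers were present: the summed abundance of the 8 measured markers, insulin included, was 184750 to 192680 in control libraries and 179270 to 184640 in ci-Ins2 libraries, so that every ci-Ins2 library was below every control library. In bulk libraries, fewer cells of a type and less RNA per cell cannot be told apart.

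Among the 23 factors tested, control levels ran from 371 ± 22.1 (SD, n = 3) for Pax6 down to 3.81 ± 0.208 for Mnx1. Pax6, a paired-box and homeodomain factor of all islet endocrine cells, was followed by St18 at 304 ± 1.98, Neurod1 at 209.7 ± 32.3 and Pdx1 at 149 ± 6.24, and these were the 4 factors at 100 or above. Another 14 lay between 10 and 100 and 5 lay under 10. In the order of control means, 9 of the 22 pairs of neighbours had ranges that were apart, and 13 overlapped. The 4 highest factors and Ldb1 were each apart from the next. Isl1, Mafa, Tshz1, Foxa2 and Rfx6, with means of 54.0 down to 44.9, overlapped from neighbour to neighbour, as did Myt1 with Tle3, and Foxo1, Hnf4a, Glis3 and Nkx2-2 in the range around 13 to 14. Zbtb20, Esrrg, Scrt1, Hnf4g and Mnx1 formed the lowest run of overlapping ranges. All 23 were at 1 or above in each of the 6 libraries, so none passed the filter through 1 group alone.

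**Figure D1:**
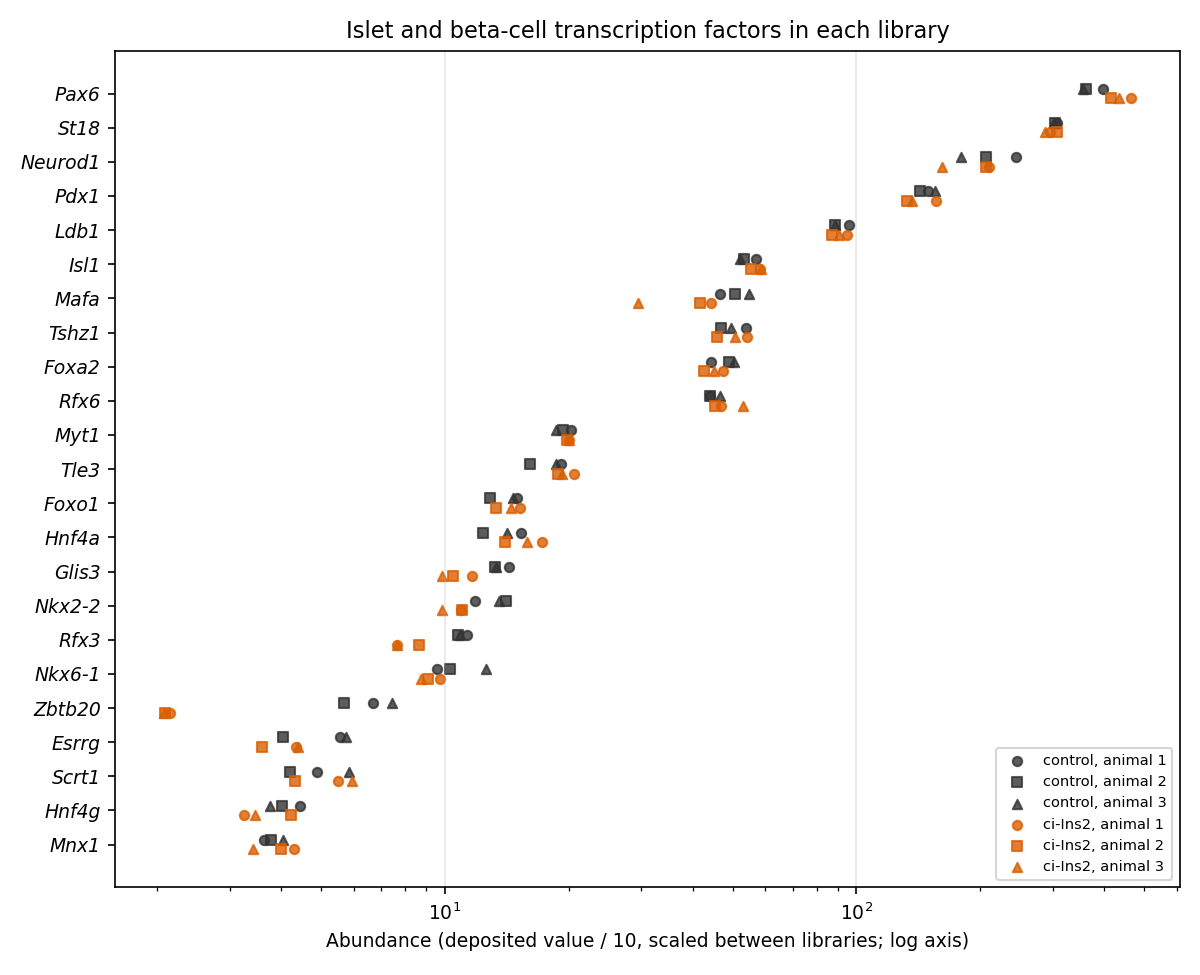
Abundance of the 23 tested factors in each of the 6 libraries on a log axis, ordered by the control mean, with black points for control and orange points for ci-Ins2 libraries and a marker shape for each animal. Pax6 is highest in both groups, and the ci-Ins2 points of Zbtb20, at 2.07 to 2.14, lie far to the left of its control points at 5.67 to 7.41.

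Of the 4 factors below the filter, Bach2, a basic leucine zipper repressor best known from lymphocytes, was at 0.494 to 0.655 in control and 0.383 to 0.740 in ci-Ins2 libraries. Tcf7l2, an effector of Wnt signalling, was at 0.0511 to 0.0591 and 0.0290 to 0.0952. Pax4, a factor of endocrine precursors that favours the beta and delta lineages in mice, was listed at 0 in 1 control library and reached 0.199 in 1 ci-Ins2 library. Foxa1, the close relative of Foxa2, was listed at 0 in 4 of the 6 libraries and reached 0.00511. These values are too low for a comparison.

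After transfection with the ci-Ins2 gapmeR, 2 factors fell, while 3 of the 4 most abundant, St18, Neurod1 and Pdx1, had log2 fold changes within 0.15 of 0. Zbtb20, a zinc finger repressor, was 68.2% below control. Rfx3, a winged-helix factor of ciliogenesis and of endocrine cell differentiation, was 27.4% below control. In limma's test with adjustment over all genes tested, these 2 of 23 factors (8.70%) passed the adjusted p of 0.05 in the lower direction, where 3.5% of all genes tested did. None passed it in the higher direction, where 1.01% of all genes did, and 1 factor, Pax6, had an unadjusted p under 0.05 there. With the animal as a block, 3 factors were lower (Zbtb20, Rfx3 and Glis3, 13.0% of 23) and 1 was higher (Pax6, 4.35%), while the shares of all genes rose to 10.3% lower and 5.23% higher. A block takes out what the control and the ci-Ins2 library of 1 animal have in common. The median log2 fold change of the 23 was −0.04, beside 0.00 over all genes tested, and the median of its absolute size was 0.12 beside 0.11. In all, 488 genes were lower and 141 higher, and without scaling between libraries 360 were lower and 177 higher; the same 2 factors were called in that fit. With 1 library left out, 187 to 309 genes were lower and 35 to 73 higher, the fewest lower without control replicate 3. Of the 21 factors that were not called, 14 had log2 fold changes within 0.15 of 0.

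**Figure D2:**
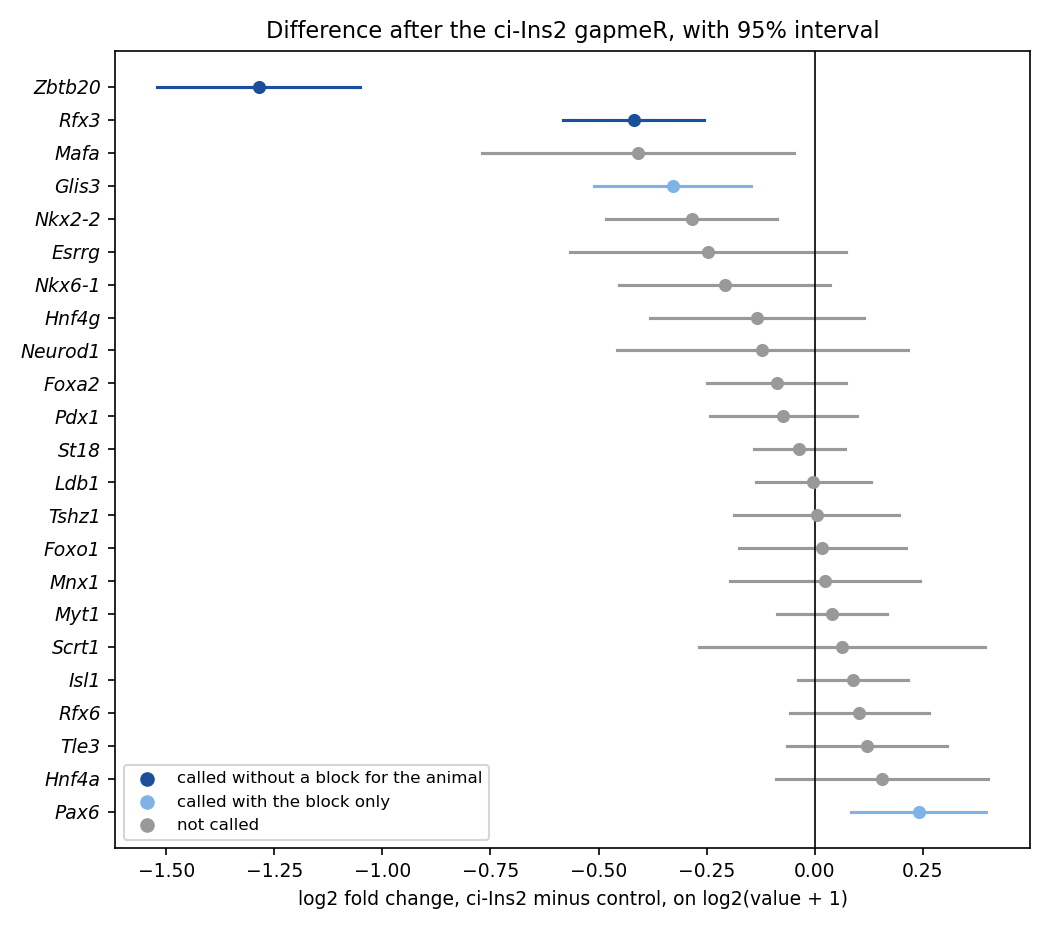
Log2 fold change of each factor, ci-Ins2 minus control, on log2(value + 1), with its 95% interval from limma's fit without a block. Dark blue marks Zbtb20 and Rfx3, called without a block, light blue marks Glis3 and Pax6, called only with the animal as a block, and grey marks the factors that were not called.

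The 3 ci-Ins2 libraries lay wholly below the 3 control libraries for 5 factors, Zbtb20, Rfx3, Glis3, Nkx2-2 and Mafa (21.7% of 23, where 13.9% of all genes did so). They lay wholly above for Pax6 alone (4.35%, where 13% of all genes did so). An exact permutation test of 3 against 3 libraries cannot give a two-sided p below 0.1, so no such p is given for single factors. Within animals, Zbtb20, Rfx3, Glis3, Nkx2-2, Mafa and Esrrg were lower in each of the 3 pairs, and Pax6, Isl1, Rfx6, Tle3, Hnf4a and Scrt1 were higher in each. The other 11 factors changed sign between animals. Over all genes tested, 27.9% were lower in every animal and 27.8% higher.

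**Figure D3:**
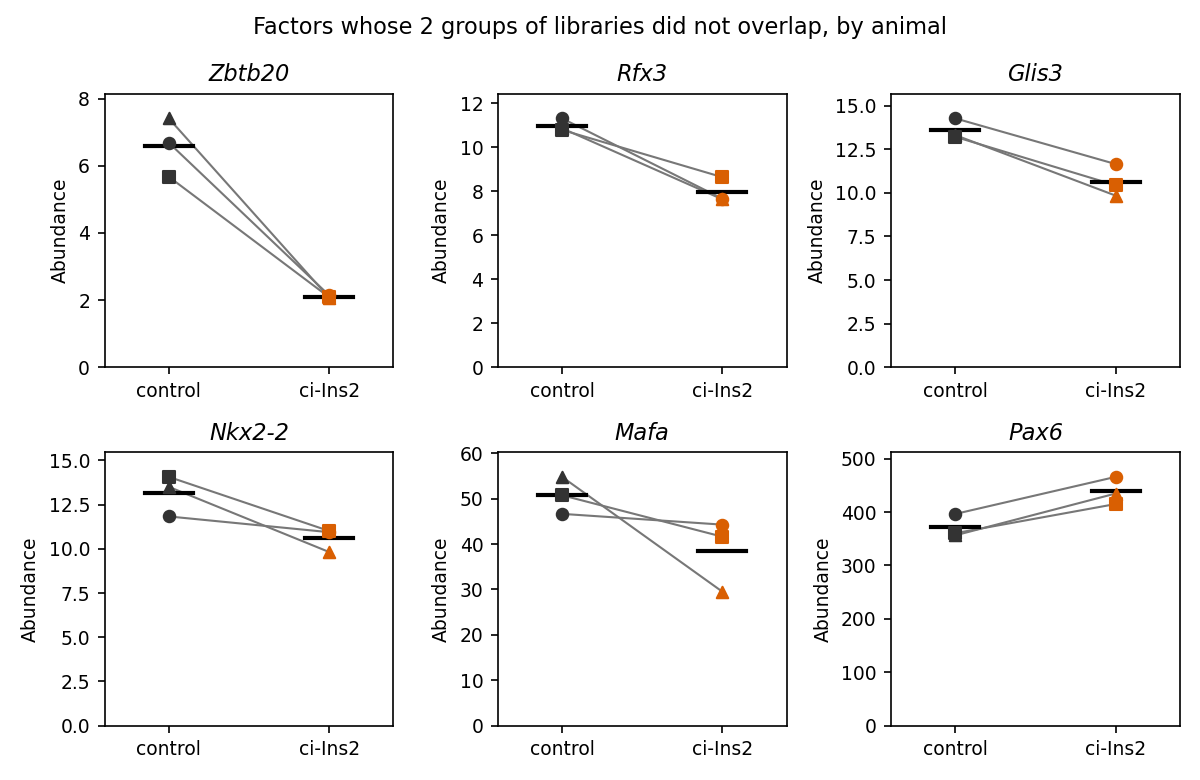
Abundance of the 6 factors whose groups did not overlap, with a line joining the control and the ci-Ins2 library of each animal and a bar at each group mean; every axis starts at 0. The lines of Zbtb20, Rfx3, Glis3, Nkx2-2 and Mafa all slope down and those of Pax6 all slope up, and the line of Mafa in animal 3 drops from 54.8 to 29.5.

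Among factors that bind the insulin promoter, Pdx1 and Neurod1 overlapped between the groups. Pdx1, the homeodomain factor without which no pancreas forms, was at 149, 143 and 155 in the control libraries of animals 1 to 3 and at 156, 133 and 137 in their ci-Ins2 libraries. Its groups overlapped, with a log2 fold change of −0.07 (95% interval −0.24 to 0.10, adjusted p = 0.623). Neurod1, a basic helix-loop-helix factor that binds the E boxes of the insulin promoter, was at 244, 206 and 179 in control and at 209, 207 and 161 in ci-Ins2 libraries. The values of animal 2 were nearly equal and those of the other 2 animals were lower after the ci-Ins2 gapmeR, for a log2 fold change of −0.12 (SE 0.14, adjusted p = 0.684). With 1 library left out, the log2 fold change of Neurod1 lay between −0.23 and 0.00, the ends being the fits that lack control replicate 3 and ci-Ins2 replicate 3.

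Mafa, a basic leucine zipper activator of the insulin gene that marks mature beta cells, had a lower fold change than either, and 1 library carried much of it. Its level was 46.7, 50.8 and 54.8 in control and 44.3, 41.6 and 29.5 in ci-Ins2 libraries. The groups did not overlap, yet the log2 differences within animals 1 to 3 were −0.07, −0.28 and −0.87. The log2 fold change of −0.41 (SE 0.15) did not pass the test (adjusted p = 0.195, and 0.122 with the block). Leaving out 1 library at a time gave values between −0.52 and −0.23.

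Among the other homeodomain factors, Pax6 stood on the higher side. It was at 396, 360.4 and 356 in control and at 466, 415 and 435 in ci-Ins2 libraries. Its lowest ci-Ins2 library was above its highest control library, and the log2 differences within animals, 0.23, 0.20 and 0.29, were close to each other. On the fit without a block the log2 fold change of 0.24 (SE 0.066) was not called (adjusted p = 0.103), and with the animal as a block it was called higher (adjusted p = 0.0124). Pax6, 18.2% above control, was thus called only in the fit that takes out the differences between animals.

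Nkx2-2, a repressor and activator needed for beta-cell specification, was at 11.8, 14.1 and 13.5 in control and at 10.9, 11.0 and 9.82 in ci-Ins2 libraries. The groups did not overlap and the mean was 19.4% below control, but the test was not passed (log2 fold change −0.28, SE 0.083, adjusted p = 0.119, and 0.0570 with the block). Nkx6-1, which keeps alpha-cell genes off in beta cells, was at 9.59, 10.3 and 12.6 in control and at 9.71, 9.09 and 8.73 in ci-Ins2 libraries. Its groups overlapped, animal 1 was slightly higher and the others lower, and the log2 fold change was −0.21 (adjusted p = 0.312). Isl1, a LIM-homeodomain factor of all islet endocrine cells, had a log2 fold change of 0.09 (95% interval −0.04 to 0.22), and that of Mnx1, a factor of early pancreas and of beta cells, was 0.02 (−0.20 to 0.24). Mnx1 was at 3.63, 3.77 and 4.04 in control and at 4.31, 3.99 and 3.41 in ci-Ins2 libraries, higher in 2 animals and lower in the third.

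Of the forkhead and winged-helix factors, Rfx3 was the 1 that fell. It was at 11.3, 10.8 and 10.9 in control libraries and at 7.65, 8.63 and 7.63 in ci-Ins2 libraries. The groups were well apart, and the log2 differences within animals were −0.51, −0.29 and −0.46. The log2 fold change was −0.42 (SE 0.069, adjusted p = 0.0214, and 0.0150 with the block). With 1 library left out, the adjusted p of Rfx3 was between 0.0283 and 0.0905, and the call held only without ci-Ins2 replicate 2. It was lost without each of the 3 control libraries and without ci-Ins2 replicates 1 and 3, while the log2 fold change stayed between −0.47 and −0.39 over these 6 fits.

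No other factor of this family was called. Rfx6, which acts downstream of endocrine specification and in mature beta cells, had a log2 fold change of 0.10 (95% interval −0.06 to 0.26), and its level was 44.9 ± 1.44 in control and 48.4 ± 3.93 in ci-Ins2 libraries (SD, n = 3). Foxa2, a pioneer factor of endoderm that opens chromatin at pancreatic genes, had −0.09 (−0.25 to 0.07). Foxo1, which insulin signalling drives out of the nucleus, had 0.02 (−0.17 to 0.21). Whether Rfx3 differed from these in its response was not tested.

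The zinc finger factors held the factor with the lowest fold change of the list and a neighbour of Rfx3 on the chromosome. Zbtb20, known in mouse beta cells as a repressor of the gluconeogenic gene Fbp1, was at 6.69, 5.67 and 7.41 in control libraries and at 2.14, 2.08 and 2.07 in ci-Ins2 libraries. The 3 ci-Ins2 values were nearly equal to each other and far below the lowest control value. The log2 fold change was −1.29 (SE 0.099, adjusted p = 0.00135, and 0.00161 with the block), and the values within animals were −1.29, −1.11 and −1.45. Zbtb20 was called lower with each of the 6 libraries left out (adjusted p between 0.00339 and 0.0115). It was called lower under all 14 alternatives tried, with log2 fold changes between −1.60 and −0.70. Under the stricter filter and with the most abundant transcript, however, Zbtb20 passed the filter only through its control libraries. The calls in those fits carry no weight.

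Glis3, a Krüppel-like factor that binds the insulin promoter, was at 14.3, 13.2 and 13.3 in control and at 11.7, 10.4 and 9.85 in ci-Ins2 libraries. Each ci-Ins2 library was below each control library, the mean was 21.8% below control, and the log2 differences within animals were −0.27, −0.31 and −0.40. The log2 fold change of −0.33 (SE 0.076) was not called without a block (adjusted p = 0.0659) and was called lower with it (adjusted p = 0.0172).

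No other zinc finger factor was called, and the interval of each spanned 0. St18, a neural and endocrine factor with several zinc fingers of its own type, was at 307, 304 and 303 in control and at 296, 307 and 288 in ci-Ins2 libraries, with a log2 fold change of −0.04 (95% interval −0.14 to 0.07). Its relative Myt1, which works in endocrine differentiation, had 0.04 (−0.09 to 0.17). Scrt1, a repressor of the Snail family, was at 4.89, 4.21 and 5.86 in control and at 5.50, 4.33 and 5.93 in ci-Ins2 libraries, with 0.06 (−0.27 to 0.39). Tshz1, a teashirt family factor, had 0.00 (−0.19 to 0.20).

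The nuclear receptors were not called in either fit. Esrrg, which in mice drives the oxidative metabolism of maturing beta cells, was at 5.56, 4.03 and 5.73 in control and at 4.36, 3.60 and 4.40 in ci-Ins2 libraries. It was lower in each animal, and its log2 fold change of −0.25 (SE 0.13) had an adjusted p of 0.353, and of 0.0645 with the block. Hnf4a, a receptor of liver and islet, was at 15.3, 12.3 and 14.2 in control and at 17.2, 13.96 and 15.8 in ci-Ins2 libraries. It was higher in each animal by 0.15, 0.16 and 0.15 on the log2 scale, with an adjusted p of 0.452 without the block and of 0.0731 with it. Hnf4g, its paralog, was at 4.45, 4.02 and 3.76 in control and at 3.24, 4.22 and 3.45 in ci-Ins2 libraries, lower in 2 animals. Neither cofactor was called. Ldb1, which bridges LIM-homeodomain proteins such as Isl1, had a log2 fold change of 0.00 (95% interval −0.14 to 0.13), and the Groucho corepressor Tle3 had 0.12 (−0.06 to 0.31).

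Transcripts of the same gene were compared to see whether a gene sum hid an isoform. The 27 factors have 42 annotated transcripts, 8 factors having more than 1, and 33 transcripts were tested among 19074. In the lower direction 3 were called, among them 1 of Zbtb20 that passed the filter only through its control libraries, where 4.23% of all transcripts were, and in the higher direction none, where 1.07% were. With the block, 4 were lower, the same Zbtb20 transcript among them, and 3 higher, beside 10.8% and 5.99% of all transcripts. Both Rfx3 transcripts were called lower, at −0.36 (adjusted p = 0.0269) and −0.39 (adjusted p = 0.0353), and each kept its share of the gene, with the first at 54.3% to 55.5% of Rfx3 in control and at 55.1% to 57.0% in ci-Ins2 libraries. The 6 Zbtb20 transcripts were each 65.3% to 73.0% below control with no overlap between groups. Since at most 1 of them passed the filter, and through the control libraries alone, no test of these transcripts is given. The 3 Pax6 transcripts were each 17.3% to 20.4% above control with no overlap, and all 3 were called higher with the block alone. Without any 1 of the 3 control libraries the Zbtb20 transcript no longer passes the filter and neither Rfx3 transcript was called, and without ci-Ins2 replicate 1 or 3 only 1 factor transcript was called lower. Estimates for transcripts of 1 gene divide shared reads between them and are not independent.

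**Figure D4:**
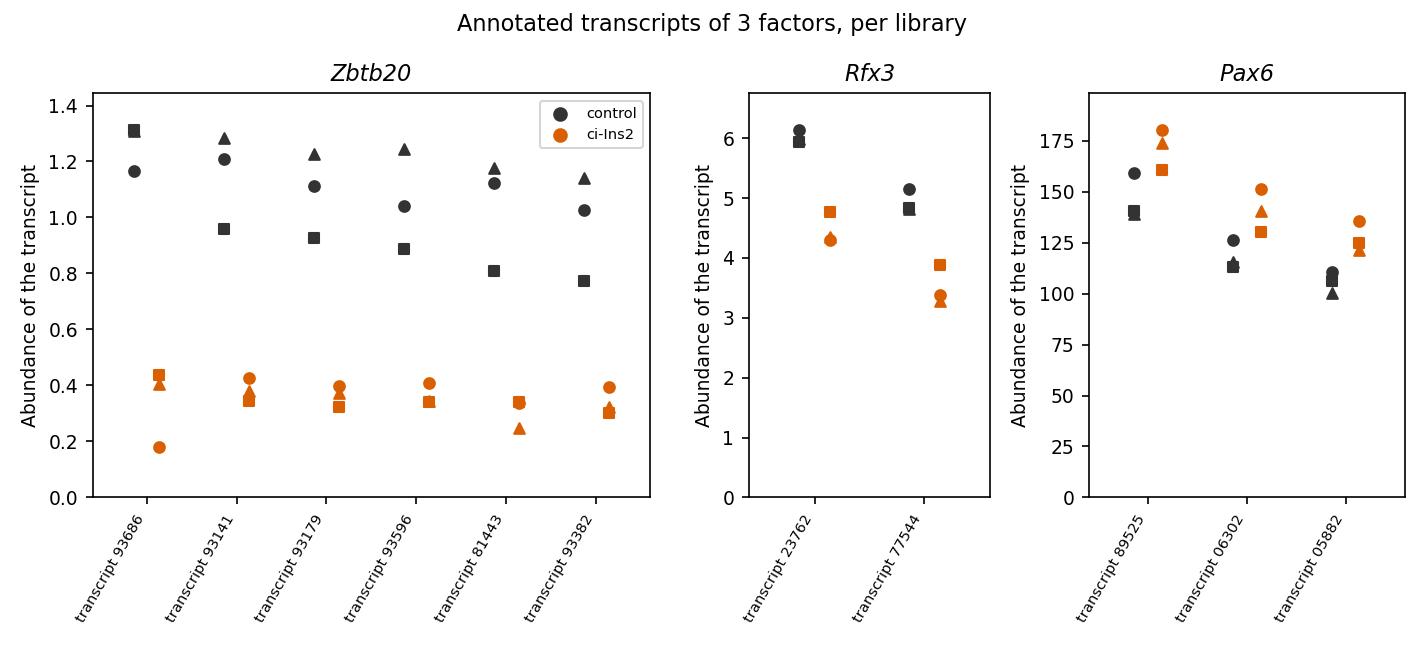
Abundance of each annotated transcript of Zbtb20, Rfx3 and Pax6 in the 6 libraries, with black points for control and orange points for ci-Ins2 libraries; transcripts are named by the end of their identifier and the axes start at 0. The groups are apart for all of them, below control for the 6 transcripts of Zbtb20 and both of Rfx3 and above it for the 3 of Pax6.

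Rfx3 and Glis3 are neighbours on rat chromosome 1: in the RefSeq annotation of GRCr8 no protein-coding gene lies between them. The next protein-coding genes that were tested were not called. Pum3, next to Rfx3, was at 0.03 on the log2 scale (adjusted p = 0.896), and Vldlr, the third on that side, was at 0.10 (adjusted p = 0.544). Plpp6, the third beyond Glis3, was at 0.08 (adjusted p = 0.503), and Kcnv2, Slc1a1 and Spata6l were not tested. Smarca2, the fourth gene on the Rfx3 side and an ATPase of the SWI/SNF complex, was called lower at −0.33 (adjusted p = 0.0200), a call that was lost without scaling (0.0688) and, of the fits with 1 library left out, was kept only without control replicate 2 (0.0315, and up to 0.0931 in the others). Nkx2-2 and Foxa2 have 1 protein-coding gene between them on chromosome 3, and no other factors of the list have fewer than 4.

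The promoter windows of Rfx3 and Glis3 are shown since for both neighbours each ci-Ins2 library was below each control library. Each holds 250 bases before and 50 bases after a RefSeq transcription start in GRCr8, on the minus strand, written in the direction of the gene, and for Glis3 the outermost of 4 windows is given. Capitals mark motif letters found on either strand.
Rfx3 promoter, chr1:235122373-235122672: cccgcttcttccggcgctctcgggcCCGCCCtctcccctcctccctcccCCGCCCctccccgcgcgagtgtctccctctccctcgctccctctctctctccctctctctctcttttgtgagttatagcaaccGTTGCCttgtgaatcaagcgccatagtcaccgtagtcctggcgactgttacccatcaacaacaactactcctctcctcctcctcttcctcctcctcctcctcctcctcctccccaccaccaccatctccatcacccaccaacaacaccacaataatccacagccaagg
Glis3 promoter, chr1:235809367-235809666: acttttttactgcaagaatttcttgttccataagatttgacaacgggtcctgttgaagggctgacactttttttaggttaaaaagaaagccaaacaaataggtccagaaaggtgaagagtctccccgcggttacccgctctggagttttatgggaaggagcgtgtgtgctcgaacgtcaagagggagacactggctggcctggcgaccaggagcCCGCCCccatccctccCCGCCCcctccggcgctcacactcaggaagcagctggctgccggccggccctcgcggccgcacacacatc
Each motif was also searched as its reverse complement, and no matches in these windows overlap. The GC box, searched as GGGCGG, was found at 2 places in both windows, all read as CCGCCC here, and it occurred in 34.5% of the 29 windows of 21 listed factors and in 33.1% of all 33469 windows of the table. The half-site of RFX factors, searched as GTTGCC, was found once in the Rfx3 window, 118 bases before the start, and occurred in 13.8% of the factors' windows and 12.2% of all. The E-box was searched only by the letters CAGATG, and other E-box letters were not searched. CAGATG is in neither of these windows but in another Glis3 window, 18 bases before its start. It was in 10.3% of the factors' windows and 16.6% of all. The forkhead motif, searched as TGTTTAC, was in none of the factors' windows and in 3.78% of all. The TATA box was searched by the letters TATAAA and was found in 6.90% and 14.2%. The median GC content of the factors' windows was 57.7%, beside 51.7% in all windows, and their median number of CpG pairs was 14 beside 7. A match is a description of the letters only. Windows were found for 21 of the 29, and not for Zbtb20, St18, Foxa1, Hnf4g, Rfx6, Mafa, Scrt1 and Insm1.

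Genes that these factors are known to regulate were read from a list of 24, of which 20 were tested. In this list 2 were called lower in limma's test and none higher, beside 3.5% and 1.01% of all genes. At an unadjusted p under 0.05 there were 6 lower and 3 higher, where 20.5% of all genes passed in either direction, and the median log2 fold change was −0.04. Gipr, the receptor of the incretin GIP, was at 129, 123 and 116 in control and at 96.8, 99.6 and 95.8 in ci-Ins2 libraries, a log2 fold change of −0.33 (adjusted p = 0.0182). Syt4, a synaptotagmin that is a Mafa target in mouse beta cells, was at 167, 168 and 196 in control and at 141, 136 and 138 in ci-Ins2 libraries, a log2 fold change of −0.35 (adjusted p = 0.0451). The groups were apart for each gene. Without scaling between libraries neither was called (adjusted p of 0.0574 for Gipr and 0.0745 for Syt4). With 1 library left out, Syt4 was called in none of the 6 fits (0.0728 to 0.135) and Gipr only without control replicate 3 (0.0405, and up to 0.0749 in the others). With the animal as a block 4 of the 20 were lower, with Ero1b and Prlr added, and 4 were higher, Slc30a8, Sytl4 and Ucn3 among them. In that fit 10.3% of all genes were lower and 5.23% higher.

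A wider list of 35 tested endocrine factors and cofactors outside the 29 held 6 that fell and none that rose in limma's test, beside 3.5% and 1.01% of all genes. At an unadjusted p under 0.05 there were 9 lower and 1 higher. The 6 became 3 without scaling and 2 to 4 with 1 library left out (2 without control replicate 1 or 3, 3 without control replicate 2 or ci-Ins2 replicate 2 or 3), with Tshz2 below the filter where a control library is missing, and the median log2 fold change was −0.06. The 3 with the smallest adjusted p were Tshz2, a relative of Tshz1, Rfx7, of the same family as Rfx3 and Rfx6, and Esrra, the paralog of Esrrg. Tshz2, counted among the 6, went from 2.39 ± 0.111 in control to 0.691 ± 0.0893 in ci-Ins2 libraries (SD, n = 3). It passed the filter only through its control libraries, so its test and its place in these counts carry no weight. Rfx7 went from 6.11 ± 0.512 to 3.24 ± 0.0921 (log2 fold change −0.74, adjusted p = 0.00461), and Esrra from 19.1 ± 1.25 to 10.8 ± 1.24 (−0.77, adjusted p = 0.00681). Rfx7 was thus called where Rfx6 was not, and Esrra where Esrrg was not, but the differences between paralogs were not tested. Rfx7 and Esrra were called with each of the 6 libraries left out, with adjusted p up to 0.0295 and 0.0384. With the block, 8 of the 35 were lower, Tshz2 among them, and 1 higher, beside 10.3% and 5.23% of all genes.

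Of 10 tested transcription factors of alpha, delta and PP cells, Etv1 was called higher, from 16.6 ± 0.726 to 20.4 ± 0.758 (SD, n = 3, log2 fold change 0.28, adjusted p = 0.0472), and none lower, and the median was 0.19. The call of Etv1 was lost without scaling (adjusted p = 0.0672) and without any 1 of the 6 libraries (0.0867 to 0.165). With the block 3 of the 10 were higher, Smarca1 among them, where 5.23% of all genes were, and none was lower. Neither fit called any of the 4 acinar factors, and of the 6 tested genes of progenitors and dedifferentiation, none was called without the block and Gast was higher with it. None of the 10 tested genes that beta cells keep silent was called without the block, and Igfbp4 was lower with it. The unadjusted p in limma's test was under 0.05 for 4 of the 10 factors of other islet cells, for none of the acinar factors, for 2 of the 6 progenitor genes and for 1 of the 10 silent genes, where it was for 20.5% of all genes tested. Irx1, 1 of these 4, was at 0.671 to 0.960 in control and at 1.09 to 1.27 in ci-Ins2 libraries. It passed the filter only through its ci-Ins2 libraries, so its place in these counts and in the median of 0.19 carries no weight.

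Markers of other cells moved beside these factors, and their part in the results was not tested. Of 6 tested ductal markers, 3 were called higher, Krt7, Krt18 and Krt19, where 1.01% of all genes tested were. The summed level of the list of 9 was 942 to 990 in control and 1072 to 1180 in ci-Ins2 libraries, with no overlap. Most of that sum is Krt7, Krt8 and Krt18, and Krt8, at 286 and 314 on average, was not called. Epcam (137 and 135) and Spp1 (24.3 and 21.4) were not called either, and Sox9, Muc1 and Cftr were below the filter, Sox9 at 0.332 and 0.208. With 1 library left out the adjusted p rose to at most 0.0558 for Krt19, 0.122 for Krt18 and 0.160 for Krt7. Of 3 tested delta-cell markers Rbp4 was called higher at 0.54 (adjusted p = 0.00179), while the sum of the 4 listed overlapped, at 1066 to 1375 and 1092 to 1294. Alpha-cell markers were not called without the block, with sums of 23248 to 28649 and 21116 to 28001. Irx1 among them passed the filter only through its ci-Ins2 libraries. The 12 macrophage and immune markers summed to 52.7 to 95.4 and 35.0 to 76.2, with a median of −0.44 over the 10 tested. With the block 4 of them were lower, where 10.3% of all genes were. Acinar markers were close to absent, at sums of 6.65 to 42.9 and 9.15 to 18.2, and none was called. None of the 8 tested beta-cell, 2 PP-cell, 7 endothelial, 9 fibroblast and stellate and 2 Schwann cell markers was called without the block. With it Slc30a8, Ucn3 and Pyy were among those higher and Kdr, Col1a1, Col1a2 and Col3a1 lower. Of all genes, 5.23% were higher and 10.3% lower in that fit.

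The same genes were also read in the authors' annotation of circular RNAs from mouse islets, which comes from other samples than the rat libraries. Of 15925 circRNAs, 72 had a listed factor as host, and 10 factors were hosts. Rfx3 hosted 23, a number that 33 of 4286 host genes reached, where the median host had 2. It was followed by St18 with 13, Glis3 with 12 and Zbtb20 with 8. Foxo1, Mlxipl, Pax6 and Rfx6 hosted 3 each, and Esrrg and Myt1 hosted 2. Of the 72, 15.3% were of the intron class, which is 5.82% of the whole annotation, and Glis3 and Zbtb20 had 4 each.

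By the authors' mean of normalized junction reads, the 5 most abundant circRNAs of the list came from Mlxipl and Glis3. An exon circle of Mlxipl, the glucose-responsive factor ChREBP, had a mean of 1443 and ranked 6 of all 15925. A Glis3 exon circle had 524 and ranked 31, further Glis3 circles had 234 and 107, and another of Mlxipl had 50.5. The highest mean among the 23 circles of Rfx3 was 39.6 and among the 8 of Zbtb20 it was 11.7. No test links these numbers to the rat libraries, which differ in species, samples and RNA class, and gene length was not analysed here.

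**Figure D5:**
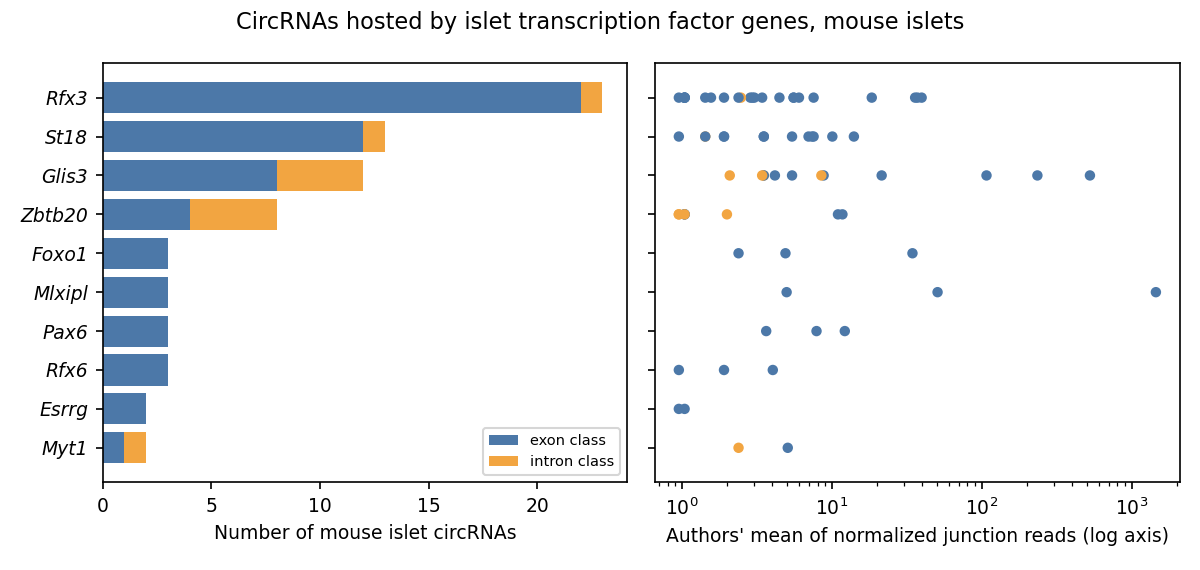
Left, number of mouse islet circRNAs per host gene for the 10 listed factors that host any, split into the exon and the intron class; right, the authors' mean of normalized junction reads of each circRNA on a log axis. Rfx3 has the most circles, 23, while the highest means belong to Mlxipl, at 1443, and Glis3, at 524.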

How the data were processed

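Libraries were prepared from RNA of transfected rat islet cells with a stranded mRNA kit and sequenced as single reads. STAR 2.5.3a and RSEM 1.3.0, named in the submitters' processing notes, were used by the authors to align reads to the transcriptome of rn6 and to estimate transcript levels. No source used here names the unit of the deposited abundance signal. Each library sums to 10 times the total of TPM, so values were divided by 10 and treated as relative abundances. Since depth cannot be read from them, a count test could not be used and counting error is unknown. The deposited tables of the authors' own comparisons, made after HISAT2 2.1.0, HTSeq and DESeq2 1.12.4, hold log2 fold changes, p-values and pathway enrichments and were not used. In the mouse circRNA annotation the authors' mean, a signal of junction reads normalized with DESeq2, was read as deposited, and 6 columns of single samples of another study were not used.

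Transcripts were summed per gene name, genes at 1 or above in at least 3 libraries were kept, and libraries were scaled by median-of-ratios factors. The test was limma 3.58.1 in R 4.3.3, which took log2(value + 1) of all genes kept and modelled a mean-variance trend, with Benjamini-Hochberg adjustment over all of them. The threshold for a call was an adjusted p of 0.05. Fold changes on this scale understate the change of low genes. The design took no block, as the study's methods name none. By the study's reporting summary, 1 animal gave the control and the ci-Ins2 library of each number. Their deviations from the group means correlated at 0.462, 0.493 and 0.419, beside −0.157 to −0.266 for different numbers, so a blocked fit is given where it changes a call. The intervals, the SEs and the fits with 1 library left out took no block, so they keep the differences between animals. The block brought the SE from 0.141 to 0.0505 for Neurod1 and from 0.151 to 0.149 for Mafa.

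The alternatives were the block, no scaling, no filter or one at 5, a pseudocount of 0.1 or 5, the most abundant transcript in place of the sum, no mean-variance trend, and each library left out in turn. The fit was tested on simulated data without pairing by animal. There, 98% of genes with a log2 change of 1 and 59.8% of those with 0.5 were called, beside 0.0367% of unchanged genes. Smaller changes were not simulated. The members, the lists of other genes and the rules were chosen with earlier results of these data known. All members are accounted for, and values per library are given for members called in either fit, for the 3 most and the 3 least abundant tested, and for others of the same role, which were chosen after their values were seen. Of other lists, the genes named are at most the 3 with the smallest adjusted p, or the called genes where 5 or fewer were called. Genes called only with the block and the other ductal markers were named after their values were seen, Smarca2 was named as a neighbour of Rfx3, and some genes are not reported here. Promoter windows are from RefSeq (GRCr8), a later build than rn6, from which only gene order and these windows were taken. Sequences and plots were handled in Python 3.11.15 (pandas 2.3.3, matplotlib 3.10.9).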

Additional observations from a re-analysis of the deposited data

How the results depend on the processing

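The replicate block moved the count of factors called higher from 0 to 1 (Pax6) and that of factor transcripts called higher from 0 to 3. It brought Glis3 and 1 Glis3 transcript over the threshold on the lower side, and it changed no other call among the factors. Leaving out 1 library at a time gave 1 to 2 factors called lower, with Zbtb20 in each of the 6 fits, and 0 to 3 transcripts called lower. The transcript count was 0 without any 1 of the control libraries, where the Zbtb20 transcript falls below the filter of 3 libraries. A group of 2 is assumed to vary like the other group. Over all genes tested, the block moved the calls from 488 to 1428 lower and from 141 to 729 higher, and leaving out 1 library gave 187 to 309 lower and 35 to 73 higher. Without a filter 382 were lower and 89 higher. The other changes of direction were in uncalled factors near 0. Without scaling between libraries the log2 fold change of St18 was 0.008866 and that of Ldb1 0.04105. With 1 library left out at a time, it ranged from −0.03509 to 0.09738 for Mnx1, from −0.04626 to 0.0667 for Foxo1, from −0.03317 to 0.1745 for Scrt1, from −0.05003 to 0.06678 for Tshz1 and from −0.03392 to 0.03571 for Ldb1. The cause of these shifts was not tested. The unknown depth and the 3 animals limit what a missed threshold says.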
